A study of Mus musculus with 38 samples.

Results

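The RNA of cortical collecting ducts was compared between wild-type mice infused with dDAVP (desmopressin, a vasopressin analogue that acts on the V2 receptor) and wild-type mice infused with saline. The comparison used 8 of the 38 libraries of the series, 4 per group, chosen as the saline and dDAVP columns of the deposited table of TPM (transcript abundance scaled for transcript length and library total), and all 5035 genes that this table lists. Both groups were labelled C57BL/6 and wild type, both were infused for 5 days, and the ducts (CCDs) had been dissected by hand from the kidney. Dose, route, age and sex of the mice are not given in the sources used here, and the labels do not say that each library came from a separate animal, so the p-values measure the spread between these libraries, which may be partly technical. The title of dDAVP library 4 carries the number 4 for its duct and the number 3 for its treatment. The rest of the series holds ATAC-seq of ducts under the same treatments and a second RNA table on β-catenin, which was not used here.

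The collecting duct is where vasopressin sets how much water the kidney returns to the blood. Principal cells carry the V2 receptor on their basolateral side. Its activation raises cAMP, activates protein kinase A, brings the water channel aquaporin-2 to the apical membrane and raises transcription of its gene. Intercalated cells, which lie between the principal cells, move acid and base: type A cells secrete protons through a vacuolar proton pump, and type B cells secrete bicarbonate through the exchanger pendrin.

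Duct identity was visible in every library. Aqp2 made up 1.81 to 2.19% of all TPM, unlisted genes included, in the saline libraries and 5.18 to 7.23% in the dDAVP libraries, and 19 of 20 principal cell genes were listed. The number of reads behind each TPM value is unknown. Saline libraries 3 and 4 had the lowest median Spearman correlations with the rest, 0.813 and 0.778, where the other 6 had 0.880 to 0.916. Transcripts of neighbouring segments were present in amounts that differed between libraries. The listed proximal tubule markers (11 of 18) summed to 1492 to 48927 TPM with saline, the top value being saline library 3, and to 2222 to 18337 TPM with dDAVP. Connecting tubule markers (4 of 8) summed to 1074 to 16465 and 524 to 1856 TPM, and thick ascending limb markers (2 of 10) to 115 to 858 and 44.4 to 5387 TPM. None of these markers was called in the main fit, and the sums overlapped between the groups. Of the connecting tubule markers 3 were lower with dDAVP and 1 higher, with a median log2 difference of -0.99 and the lowest at -3.43. With library weights S100g (log2 -6.07, limma adjusted p = 0.000888) and Calb1 (log2 -0.73, limma adjusted p = 0.0308) were called lower. Of 5 erythrocyte markers none was listed, and of 12 leukocyte markers 3 were listed. In tissue of mixed cells, fewer cells of a type and less RNA per cell cannot be told apart.

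**Figure D1:**
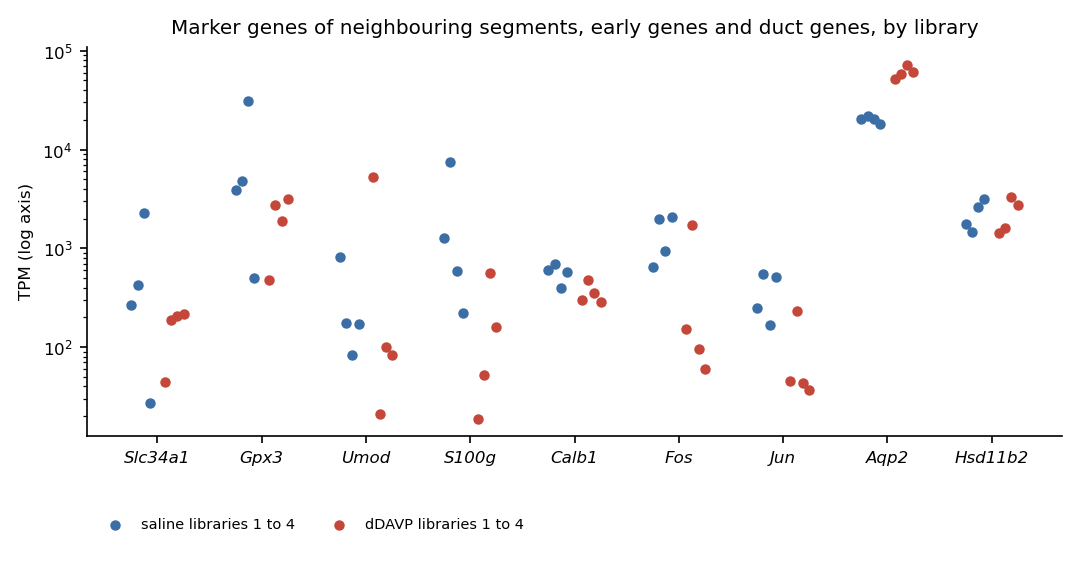
TPM (log axis) of marker genes in each library, saline in blue and dDAVP in red, libraries 1 to 4 from left to right within each group. Slc34a1 and Gpx3 (proximal tubule), Umod (thick ascending limb), S100g and Calb1 (connecting tubule) and the early genes Fos and Jun vary widely within groups, with Umod at 5253 TPM in dDAVP library 1 and Gpx3 at 30995 TPM in saline library 3, while Aqp2 separates the groups and Hsd11b2, a principal cell gene, does not.

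A small set of genes differed by a large factor and a wider set differed by less. By limma on log2(TPM + 1), with Benjamini-Hochberg adjustment over all listed genes and a threshold of 0.05, 35 of 5035 genes were called, 0.695% of those tested. Of these, 28 rose (0.556%) and 7 fell (0.139%), with folds between 1.75 and 6.29. Fold changes here are on the log2(TPM + 1) scale, which slightly understates the change of genes near the lower bound of 10 TPM. All 35 also had groups that did not overlap, meaning that every dDAVP library stood above, or every one below, every saline library; such genes are called separated here. That held for 432 genes in all (8.58%), 179 higher (3.56%) and 253 lower (5.02%), of which 397 were not called. Their median fold was 1.60 and the smallest 1.14. With a fold of 1.5 or more, 110 were higher (2.18%) and 155 lower (3.08%). The gene lists described below were chosen with earlier results of these data known, so their counts are no independent evidence. The median difference over all genes was -0.06 on the log2 scale, with 2839 genes below 0 and 2196 above.

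The number of calls changed when single libraries were left out. Omitting saline library 1 or 2 left 18 or 17 calls, and omitting dDAVP library 1, 2, 3 or 4 left 16, 23, 7 or 19. Omitting saline library 3 or 4 gave 38 or 47. With library weights, 164 genes were called higher and 153 lower. Calls of lower genes numbered 14 without saline 3. In all 8 fits that left out 1 library, 7 genes kept their call: Crem, Abhd3, Niban1, Cdk18, Car15, Aqp2 and Id2. For the other genes named below as having risen or fallen, the number of these 8 fits that kept the call is given beside the value. With fewer libraries a given difference is harder to call, so a lost call alone does not show dependence on the omitted library.

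**Figure D2:**
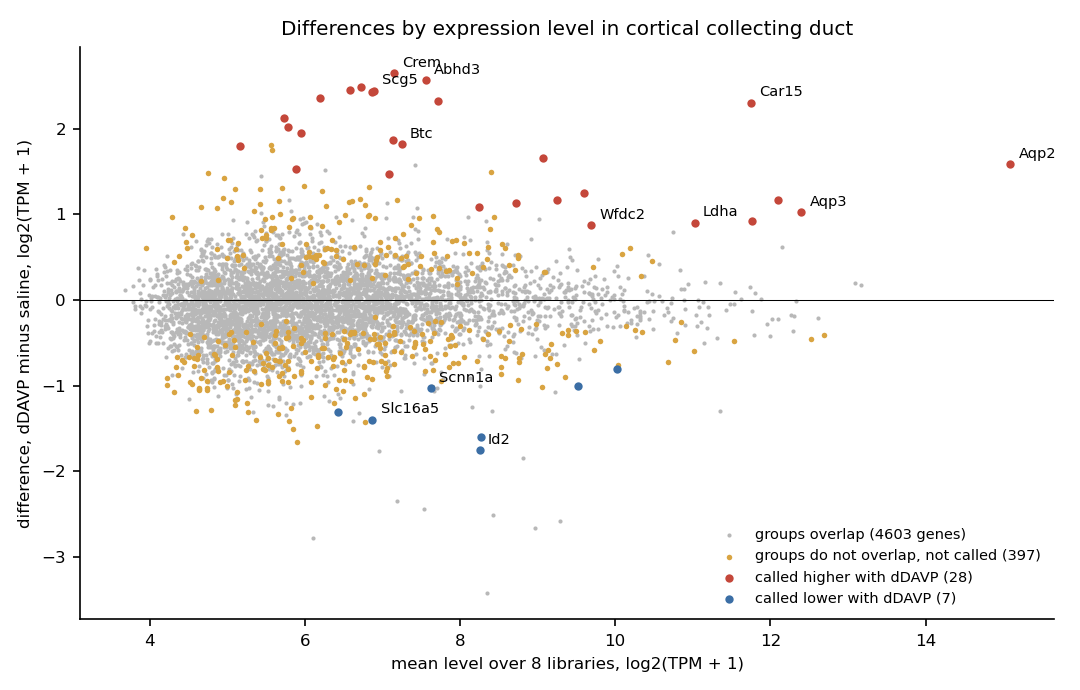
Difference between dDAVP and saline (log2 scale) against the mean level over the 8 libraries for 5035 genes. The 28 called rises (red) and 7 called falls (blue) include both scarce and abundant transcripts, and the 397 genes in yellow had groups that did not overlap without a call.

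The water channels of principal cells rose together with the cAMP-responsive factor Crem. Aqp2, the apical vasopressin-regulated water channel (ENSMUSG00000023013, chr15:99579056-99584545 on GRCm38.p6, plus strand), stood at 20212, 21874, 20524 and 18074 TPM in the saline libraries and at 51774, 58027, 72251 and 61434 TPM in the dDAVP libraries. Every dDAVP library stood far above every saline library, and the difference was 1.59 on the log2 scale (SE 0.18, 95% confidence interval 1.20 to 1.97, limma adjusted p = 0.0028). Quantile normalization ended the call (adjusted p = 0.696); that method gives genes of equal rank an equal value, and Aqp2 ranked first in every library but saline 3, where it ranked second. Aqp3, the basolateral water channel through which the water leaves the cell, stood at 3602, 3793, 2900 and 5205 TPM with saline and 7310, 8123, 8381 and 7116 TPM with dDAVP. It rose 2.04-fold (limma adjusted p = 0.0241), with the call kept in 2 of 8 fits and adjusted p up to 0.12 among them. Aqp4, the other basolateral water channel, ran from 33.3 to 309 TPM with saline and from 161 to 463 TPM with dDAVP. Its groups overlapped, with saline library 4 above 2 of the dDAVP libraries, and it was not called (limma adjusted p = 0.334).

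Crem was the called gene of the receptor and the cAMP machinery. Of 47 genes of cAMP and protein kinase A signalling, 17 were listed, 1 was called, 3 were higher without overlap (17.6%, against 3.56% of all genes) and 1 lower (5.88%, against 5.02%), and their median difference was 0.02. Their summed level was 3630 to 4443 TPM with saline and 4606 to 5246 TPM with dDAVP, without overlap. Within these sums the mean of Avpr2 went from 954 to 1450 TPM and that of Crem from 61.3 to 356 TPM, so the sums do not describe every member. Crem, which encodes activators and the inducible repressors of cAMP-driven transcription, stood at 49.8, 112, 49.8 and 34.0 TPM with saline and at 330, 375, 403 and 315 TPM with dDAVP. The difference was 2.65 on the log2 scale (SE 0.31, limma adjusted p = 0.0028), the largest of any called gene. Avpr2, the V2 receptor, stood at 1004, 769, 864 and 1178 TPM with saline and at 1259, 1264, 1720 and 1559 TPM with dDAVP. The groups did not overlap, by a narrow gap, and the 1.53-fold difference was not called (limma adjusted p = 0.199).

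A phosphodiesterase and a kinase inhibitor were also separated, in opposite directions. Pde3b, a phosphodiesterase that breaks down cAMP, stood at 24.3, 28.9, 12.5 and 39.3 TPM with saline and at 97.3, 110, 107 and 52.1 TPM with dDAVP. It was 3.52-fold higher (log2 1.82, SE 0.38) and was not called (limma adjusted p = 0.0657), but it was called once libraries were scaled by median of ratios (adjusted p = 0.0345). Pkib, an inhibitor of protein kinase A, was the separated gene in the other direction, at 26.3 to 37.1 TPM with saline and 13.1 to 24.3 TPM with dDAVP. The catalytic subunit Prkaca (log2 -0.37) and the cAMP-activated exchange factor Rapgef3 (log2 0.70) overlapped between groups. Of 12 listed targets of the cAMP response factor CREB, Crem and Stc1 rose and Pde3b was higher without overlap, while 9 of the 12 lay below 0 and the median was -0.32.

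Genes of proteins that handle aquaporin-2 inside the cell included a kinase and a membrane proteolipid that rose. Of 25 listed members, 4 were higher without overlap (16%, against 3.56% of all genes), 0 were lower (against 5.02%), and the median was 0.02. Cdk18, a kinase known to act on the phosphorylation and turnover of aquaporin-2, stood at 32.2, 32.6, 47.8 and 19.0 TPM with saline and at 178, 177, 126 and 183 TPM with dDAVP. It rose 5.12-fold (log2 2.35, SE 0.29, limma adjusted p = 0.00345). Mal2, a membrane proteolipid of apical transport, stood at 377, 381, 346 and 547 TPM with saline and at 1083, 1106, 788 and 735 TPM with dDAVP, and rose 2.24-fold (limma adjusted p = 0.0208, kept in 3 of 8 fits). Its relative Mal, which binds aquaporin-2, was higher by a smaller step, at 471 to 503 TPM against 527 to 696 TPM (log2 0.32, limma adjusted p = 0.448). Anxa2, a membrane-binding annexin, ran from 143 to 240 TPM with saline and from 262 to 410 TPM with dDAVP (log2 0.70, limma adjusted p = 0.214). The vesicle fusion proteins Vamp8 and Vamp3 overlapped between groups, with differences of 0.28 and -0.80.

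The upstream sequences of 3 called genes are given because they carry the cAMP response element, the site bound by CREB and CREM, or one side of it. Each run is the 250 bases before the annotated start in RefSeq (GRCm38.p6), 5′ to 3′ on the gene's own strand, with the element or its half-site in capitals. The windows are chr15:99578806-99579055 on the plus strand for Aqp2, chr7:46845554-46845803 on the plus strand for 1 start of Ldha and chr16:17838187-17838436 on the minus strand for Car15.
Aqp2: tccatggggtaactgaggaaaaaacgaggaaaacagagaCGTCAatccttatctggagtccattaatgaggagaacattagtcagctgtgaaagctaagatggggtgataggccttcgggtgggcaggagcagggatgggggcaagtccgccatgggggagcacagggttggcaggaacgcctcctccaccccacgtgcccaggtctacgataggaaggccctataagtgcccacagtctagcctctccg
Ldha: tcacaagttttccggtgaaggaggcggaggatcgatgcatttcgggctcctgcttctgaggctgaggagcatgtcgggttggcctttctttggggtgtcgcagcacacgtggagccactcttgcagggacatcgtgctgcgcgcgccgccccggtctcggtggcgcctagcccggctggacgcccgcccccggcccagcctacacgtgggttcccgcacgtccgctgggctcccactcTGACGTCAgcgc
Car15: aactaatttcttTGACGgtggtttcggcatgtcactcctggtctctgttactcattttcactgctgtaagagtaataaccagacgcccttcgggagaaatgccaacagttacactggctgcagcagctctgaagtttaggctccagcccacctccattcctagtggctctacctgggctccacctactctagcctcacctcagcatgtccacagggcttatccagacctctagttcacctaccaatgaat
The palindrome TGACGTCA stood 12 to 5 bases before this start of Ldha, and it was present in 1 of the 18 called rises with a promoter in the table, in 0 of 5 called falls and in 3.505% of the 4051 listed genes with a promoter. The shorter form TGACG, or CGTCA on the other strand, is contained in the palindrome; in the Aqp2 window it lay 211 to 207 bases before the start and in the Car15 window 238 to 234 bases before it. It was found in 5 of the 18 called rises (27.8%), beside 33.3% of all listed genes with a promoter. A match of letters is not a bound site.

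Of 17 listed genes of growth factors, receptors and secreted proteins, 7 rose (41.2%, against 0.556% of all genes), and none fell. This list was drawn up with the called genes known, so its count is no independent evidence. Stc1, a glycoprotein hormone, stood at 40.9, 51.3, 21.7 and 79.7 TPM with saline and at 153, 505, 324 and 159 TPM with dDAVP. The dDAVP libraries differed widely among themselves, and the 5.63-fold rise (limma adjusted p = 0.0259) kept its call in 2 of 8 fits. Scg5, which encodes the chaperone 7B2 of prohormone processing, stood at 49.2, 61.0, 23.8 and 84.6 TPM with saline and at 212, 262, 419 and 247 TPM with dDAVP. It rose 5.45-fold (limma adjusted p = 0.0110) and lost its call without dDAVP library 3 alone (adjusted p = 0.0596). Btc, betacellulin, a ligand of the epidermal growth factor receptor, stood at 65.2, 50.7, 101 and 121 TPM with saline and at 294, 274, 317 and 259 TPM with dDAVP. It rose 3.54-fold (limma adjusted p = 0.0110), again with the call lost without dDAVP library 3 alone (adjusted p = 0.0596).

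Ache and several secreted proteins followed. Ache, acetylcholinesterase, stood at 62.9, 48.0, 74.7 and 125 TPM with saline and at 240, 304, 302 and 240 TPM with dDAVP, a 3.66-fold rise (limma adjusted p = 0.0110, lost without dDAVP library 3 alone at 0.0596). Lcn2, a secreted lipocalin that is also a marker of tubule injury, rose 5.02-fold from 64.9 to 193 TPM to 390 to 544 TPM (limma adjusted p = 0.00544, lost without dDAVP library 3 alone at 0.0593). Wfdc2, a secreted protein of the whey acidic protein family, ran from 486 to 740 TPM with saline and from 958 to 1419 TPM with dDAVP. It rose 1.83-fold at the edge of the threshold (limma adjusted p = 0.04999), kept its call in 1 of 8 fits and lost it at a pseudocount of 0.1. Of 14 listed injury markers 2 were called, both higher, where 0.556% of all genes were called higher. Anxa2, described above, was higher without overlap and not called, and Krt7, a keratin of the duct, lay lower without overlap (579 to 969 TPM against 373 to 468 TPM, limma adjusted p = 0.0758). Cdkn1a and Timp3 overlapped, with differences of -0.89 and 0.33.

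Prom1 and Ly6e, of the cell surface, were also called. Prom1, a cholesterol-binding protein of membrane protrusions, ran from 61.3 to 105 TPM with saline and from 151 to 290 TPM with dDAVP (2.78-fold, limma adjusted p = 0.0241, kept in 3 of 8 fits). Ly6e, a lipid-anchored surface protein induced by interferon in many cells, rose 2.24-fold from 2292 to 4433 TPM to 5862 to 7496 TPM (limma adjusted p = 0.0238, kept in 1 of 8 fits). Among the 16 listed genes of the interferon response and antigen presentation it was the only one separated; Ifitm3 (log2 1.13) and Ifitm2 (log2 0.27) overlapped, and the list's median was 0.27.

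Further called rises fell in no single class. Niban1, a stress-related protein, stood at 40.2, 34.4, 66.8 and 27.8 TPM with saline and at 255, 255, 233 and 166 TPM with dDAVP, a 5.48-fold rise (limma adjusted p = 0.0028). Eva1b rose 5.40-fold (limma adjusted p = 0.0126), from 19.0 to 69.2 TPM to 233 to 304 TPM, and lost its call without dDAVP library 3 alone (adjusted p = 0.0766). Dab1, an adaptor of the reelin pathway, rose 4.06-fold (limma adjusted p = 0.0310, kept in 2 of 8 fits), and Ddit4l, an inhibitor of the growth kinase complex mTORC1, rose 3.47-fold (limma adjusted p = 0.0303, kept in 1 of 8 fits). Jpt2, which binds the calcium-releasing messenger NAADP, rose 2.12-fold from 190 to 232 TPM to 352 to 499 TPM (limma adjusted p = 0.0110, kept in 6 of 8 fits). The remaining called rise was a predicted gene model.

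Of the 3 subunits of the epithelial sodium channel, the transcript of 1 was called lower. Scnn1a, the α subunit, stood at 262, 270, 278 and 317 TPM with saline and at 118, 152, 164 and 120 TPM with dDAVP. It fell by 1.03 on the log2 scale (SE 0.17, limma adjusted p = 0.0215), to about 0.490 of its saline level, with the call kept in 2 of 8 fits. Scnn1b, the β subunit, was at 653 to 748 TPM with saline and 381 to 540 TPM with dDAVP. The groups did not overlap, but the difference of -0.51 was not called (limma adjusted p = 0.221). Scnn1g, the γ subunit, ran from 358 to 802 TPM and from 480 to 773 TPM, with a difference of 0.02 and a 95% confidence interval of -0.52 to 0.56. Of 18 listed genes of sodium transport and aldosterone response, Scnn1a and Scnn1b were the only separated ones (11.1% lower, against 5.02% of all genes). Sgk1, the aldosterone- and stress-induced kinase, ran from 107 to 1074 TPM with saline and from 181 to 238 TPM with dDAVP, and overlapped.

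Potassium channels and P-type pumps lay on the high side. Of 11 listed genes 4 were higher without overlap (36.4%, against 3.56% of all genes) and 1 was lower, and their median was 0.39. Their summed level was 10081 to 11009 TPM in the saline libraries and 12149 to 12841 TPM in the dDAVP libraries. These sums include Fxyd4, a pump regulator whose groups overlapped, with means of 3804 TPM with saline and 5660 TPM with dDAVP. They do not describe every member. Kcnj1, the secretory potassium channel ROMK, stood at 1076, 924, 789 and 841 TPM with saline and at 1378, 1079, 1487 and 1322 TPM with dDAVP. Saline library 1 and dDAVP library 2 nearly met, and the gene was not called (log2 0.54, limma adjusted p = 0.210). Kcnk1, a two-pore potassium channel, ran from 101 to 122 TPM with saline and from 139 to 235 TPM with dDAVP (log2 0.72, limma adjusted p = 0.191), and Kcnj16, a basolateral channel subunit, from 126 to 142 TPM and from 144 to 194 TPM (log2 0.39, limma adjusted p = 0.448).

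Atp4a, the α subunit of the proton-potassium pump best known from the stomach, was the called member of that list. It stood at 365, 366, 320 and 190 TPM with saline and at 574, 1157, 1119 and 1113 TPM with dDAVP, a 3.17-fold rise (limma adjusted p = 0.0190, kept in 5 of 8 fits). Kcne1, a small regulatory subunit of potassium channels, was the separated member on the low side, at 415 to 581 TPM with saline and 188 to 366 TPM with dDAVP (log2 -0.86, limma adjusted p = 0.108). Fxyd4, a regulator of the sodium-potassium pump, overlapped at a difference of 0.62 (limma adjusted p = 0.263) and was called without saline library 4 (adjusted p = 0.0279). Among 10 listed chloride channels and transporters 2 were lower without overlap (20%, against 5.02% of all genes). Among them Bsnd, barttin, a chloride channel subunit, ran from 153 to 217 TPM with saline and from 101 to 128 TPM with dDAVP and was not called (log2 -0.59, limma adjusted p = 0.253).

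**Figure D3:**
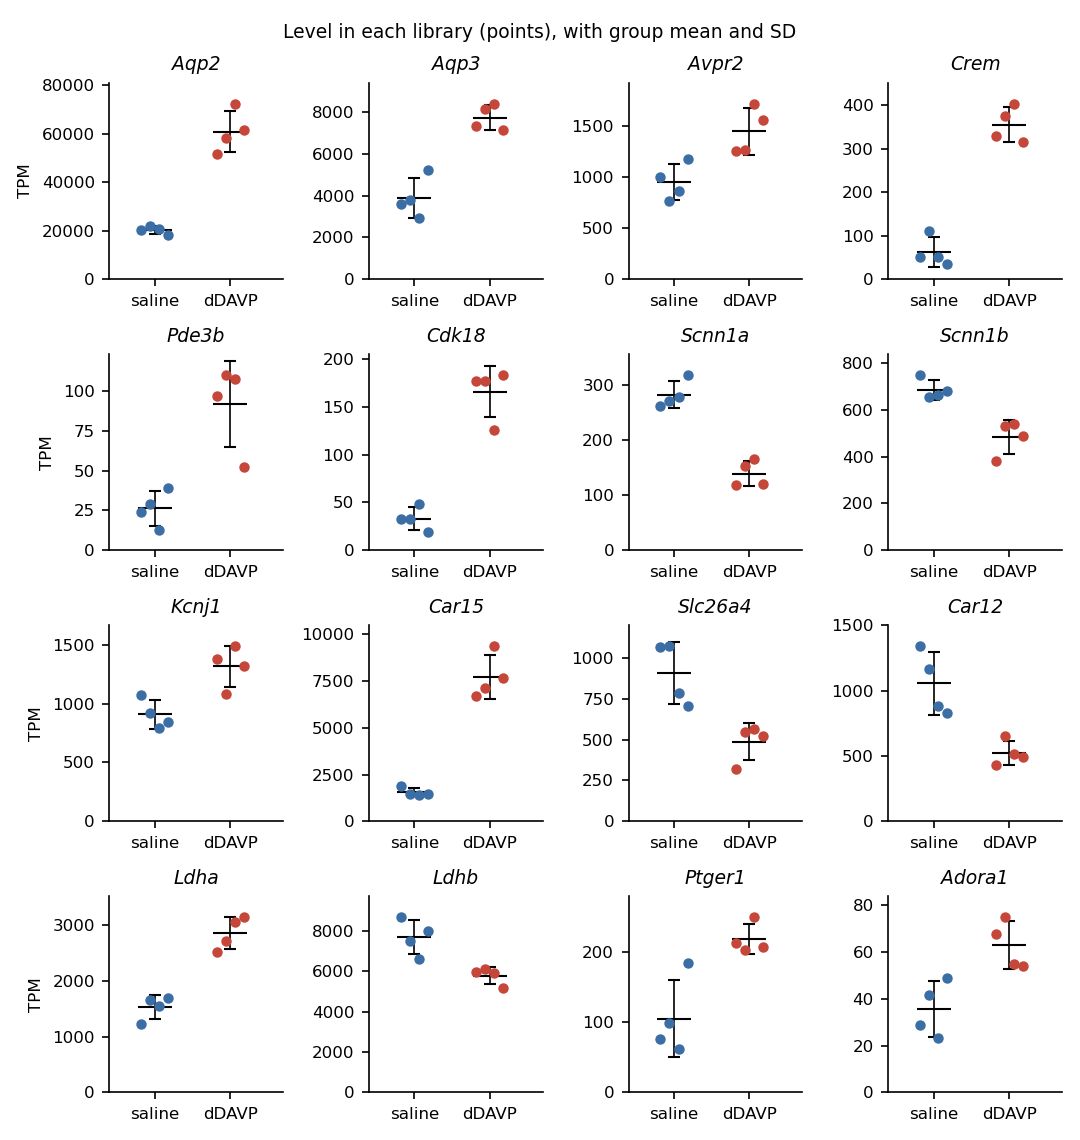
TPM of 16 genes in each library (points), with the group mean (bar) and SD (whiskers, n = 4), each axis starting at 0. Points of saline (blue) and dDAVP (red) do not overlap in any of the 16 panels, whether the gene was called (for example Aqp2, Crem and Scnn1a) or not (for example Avpr2, Scnn1b and Adora1).

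Genes of intercalated cells were mostly lower, with Car15 as a large exception. Of 16 listed genes shared by both intercalated types, 6 were lower without overlap (37.5%, against 5.02% of all genes) and 1 was higher, and the median was -0.56. Some of these genes, among them Car15, Car12, Bsnd, Atp6v0a4 and Atp6v1c2, were also counted in the lists of transport. Car15, a membrane-anchored carbonic anhydrase (chr16:17835276-17838186), stood at 1863, 1471, 1430 and 1450 TPM with saline and at 6693, 7104, 9362 and 7643 TPM with dDAVP. It rose 4.94-fold (log2 2.31, SE 0.16, limma adjusted p = 4.82e-05), the smallest adjusted p of any gene. Car12, another membrane-anchored carbonic anhydrase, stood at 1341, 1169, 887 and 831 TPM with saline and at 433, 655, 516 and 490 TPM with dDAVP. It fell by 1.00 on the log2 scale (limma adjusted p = 0.0378), kept its call in 3 of 8 fits and lost it after rescaling by median of ratios. The cytosolic enzyme Car2 overlapped, with a difference of -0.44.

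The transporters of ammonia and the regulators of these cells lay lower without a call. Rhbg, the basolateral ammonia transporter, stood at 623, 814, 739 and 886 TPM with saline and at 242, 382, 518 and 415 TPM with dDAVP (log2 -1.01, limma adjusted p = 0.0769). Its apical counterpart Rhcg ran from 2190 to 2970 TPM and from 1545 to 1835 TPM (log2 -0.60, limma adjusted p = 0.104). Oxgr1, a receptor for 2-oxoglutarate, and Foxi1, the transcription factor that specifies intercalated cells, overlapped, with differences of -1.18 and -0.38.

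Between the 2 types of intercalated cell, the lower values were those of type B genes. Of 5 listed type B genes 4 were lower without overlap (80%, against 5.02% of all genes), the median was -0.94, and the summed level was 1708 to 2322 TPM with saline and 754 to 1214 TPM with dDAVP. Slc26a4, pendrin, stood at 1067, 1073, 784 and 705 TPM with saline and at 321, 545, 565 and 522 TPM with dDAVP (log2 -0.90, SE 0.22, limma adjusted p = 0.106). Insrr, a receptor that senses alkaline pH, ran from 128 to 180 TPM and from 47.4 to 112 TPM (log2 -1.15, limma adjusted p = 0.118), and Hmx2, a homeobox factor, from 234 to 324 TPM and from 104 to 196 TPM (log2 -1.02, limma adjusted p = 0.0755). Slc4a9, the basolateral exchanger AE4, ran from 486 to 737 TPM and from 249 to 403 TPM (log2 -0.94, limma adjusted p = 0.0758). Of 6 listed type A genes none was separated and the median was 0.16. Slc4a1, the basolateral exchanger AE1, differed by -0.06, or 0.00 after rescaling by median of ratios, and Kit by -0.26. Whether the type A and type B genes differed from each other was not tested.

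The vacuolar proton pump, which intercalated cells hold in their membrane and all cells hold in lysosomes, was lower in nearly all its subunits. Of 21 listed subunits 20 had a difference below 0, 6 were lower without overlap (28.6%, against 5.02% of all genes), none was called, and the median was -0.40. Their summed level was 12417 to 14844 TPM with saline and 9806 to 11540 TPM with dDAVP, so that the groups did not overlap. Atp6v0a4 and Atp6v1c2, subunits enriched in intercalated cells, ran from 87.4 to 167 TPM with saline and 50.8 to 76.9 TPM with dDAVP, and from 278 to 345 TPM and 131 to 218 TPM (log2 -0.93 and -0.78, limma adjusted p = 0.211 and 0.106). Atp6v1b2, Atp6v1d, Atp6v1h and Atp6v0b, subunits found in most cells, were separated too, with differences of -0.65, -0.40, -0.36 and -0.26. The median stayed between -0.45 and -0.30 when any 1 library was left out. Atp6v0a4 and Atp6v1c2 were counted in the list of both intercalated types as well, so the counts of these lists are not independent. Intercalated cell genes were mostly lower beside these subunits, and their part in the result was not tested.

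**Figure D4:**
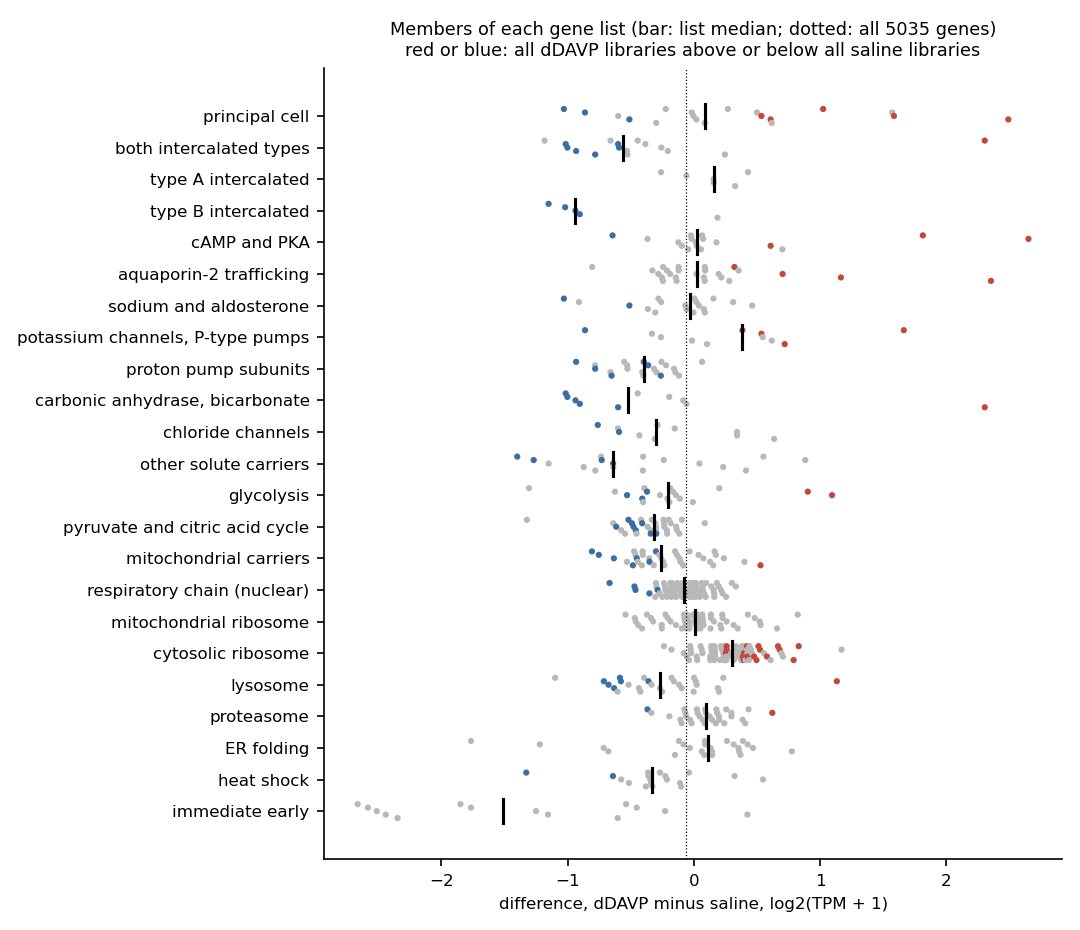
Difference between dDAVP and saline (log2 scale) of each listed member of 23 gene lists, with the list median (bar) and the median of all genes (dotted). Members whose groups did not overlap are red (higher) or blue (lower). Blue members gather in the shared and type B intercalated, proton pump, citric acid cycle and lysosome lists, and red ones in the potassium and cytosolic ribosome lists.

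Transcripts of the enzymes that burn fuel in mitochondria lay mostly lower. Of 32 listed genes of pyruvate handling and the citric acid cycle, 31 had a difference below 0, 8 were lower without overlap (25%, against 5.02% of all genes), none was called, and the median was -0.32. The summed level was 15098 to 17465 TPM with saline and 12697 to 14636 TPM with dDAVP. The pyruvate dehydrogenase complex, which feeds pyruvate into the cycle, gave 3 of the separated members: Dlat (152 to 230 TPM against 94.99 to 150 TPM, log2 -0.61), Dld (log2 -0.49) and Pdha1 (log2 -0.46). Idh2 and Suclg2, enzymes of the cycle, and Got2, the mitochondrial aspartate transaminase, differed by -0.48, -0.41 and -0.52, with limma adjusted p from 0.284 to 0.416. Without saline library 3, which held the most proximal tubule transcripts, the list's median was -0.28, and it lay between -0.36 and -0.28 over the 8 fits that left out 1 library.

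Enzymes of fatty acid oxidation and energy transfer lay lower beside them. Of 35 listed mitochondrial carriers and energy enzymes 7 were lower without overlap (20%, against 5.02% of all genes) and 1 higher (against 3.56%), and the median was -0.26. Ckmt1, the mitochondrial creatine kinase, stood at 1436, 1457, 1170 and 1486 TPM with saline and at 729, 899, 873 and 677 TPM with dDAVP. It fell by 0.81 on the log2 scale (limma adjusted p = 0.0306), with the call kept in 1 of 8 fits and lost under quantile normalization. Echs1, Etfdh and Acadvl, enzymes that oxidise fatty acids, differed by -0.63, -0.75 and -0.48 (limma adjusted p = 0.106, 0.288 and 0.263), whereas Cpt1a, which commits fatty acids to entry into the mitochondrion, was the separated gene on the high side, at 99.7 to 135 TPM against 157 to 183 TPM (log2 0.53, limma adjusted p = 0.273). Slc25a4, an exchanger of ADP and ATP, differed by -0.35.

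The respiratory chain itself moved little as a whole. Of 72 listed nuclear genes 5 were lower without overlap (6.94%), a share near the 5.02% of all genes, and the median was -0.08, or -0.01 after rescaling by median of ratios. The separated members were Ndufs1 and Ndufa10 of complex I, Cyc1 of complex III and Atp5a1 and Atp5b of the ATP synthase, with differences from -0.67 for Ndufs1 to -0.29 for Ndufa10. Of 56 listed mitochondrial ribosomal proteins none was separated (median 0.01), nor was any of 9 listed genes of the mitochondrial genome (median -0.12).

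In glycolysis the 2 lactate dehydrogenase genes lay on opposite sides. Ldha, the muscle-type subunit, which favours making lactate, stood at 1228, 1661, 1550 and 1699 TPM with saline and at 2516, 2725, 3059 and 3144 TPM with dDAVP. It rose 1.87-fold (limma adjusted p = 0.0208, kept in 3 of 8 fits). Ldhb, the heart-type subunit, which favours using lactate, stood at 8658, 7505, 6607 and 7960 TPM with saline and at 5941, 6086, 5910 and 5157 TPM with dDAVP. Its groups did not overlap, but the difference of -0.41 was not called (limma adjusted p = 0.315), and Ldhb stayed the more abundant transcript in every library. Aldoc, an aldolase, was 2.14-fold higher, at 33.5 to 64.5 TPM against 101 to 144 TPM (limma adjusted p = 0.106), while Hk1, the first enzyme of the pathway, and Eno1, enolase, were lower without overlap (log2 -0.53 and -0.37). The median of the 18 listed glycolytic genes was -0.20.

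Enzymes of lipids, amines and alcohols gave further calls. Abhd3, a phospholipase, stood at 63.9, 71.5, 75.3 and 99.0 TPM with saline and at 403, 566, 468 and 416 TPM with dDAVP, a 5.94-fold rise (limma adjusted p = 7.22e-05). Fads1, the δ5 fatty acid desaturase, rose 2.88-fold from 25.2 to 48.6 TPM to 88.8 to 107 TPM (limma adjusted p = 0.0241, kept in 2 of 8 fits). These were the only separated genes of 26 listed in fatty acid and phospholipid metabolism, and none of 12 listed genes of sterol synthesis was separated. Arg2, the mitochondrial arginase, rose 4.37-fold from 13.8 to 53.6 TPM to 88.9 to 127 TPM (limma adjusted p = 0.0238, kept in 2 of 8 fits).

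Of 19 listed genes of arginine, creatine, alcohol and aldehyde metabolism, 3 were higher and 3 lower without overlap (15.8% each, against 3.56% and 5.02% of all genes). This list was chosen with earlier results known and holds the called genes Arg2, Adh1 and Ckmt1. Its count is no independent evidence. Adh1, an alcohol dehydrogenase that also oxidises retinol, rose 1.90-fold from 2093 to 2940 TPM to 4360 to 5378 TPM (limma adjusted p = 0.0208, kept in 3 of 8 fits). Its relative Adh5 and the mitochondrial aldehyde dehydrogenase Aldh2 were lower without overlap and without a call (log2 -0.40 and -0.63). Akr1b3, aldose reductase, which makes the osmolyte sorbitol, was higher at 39.3 to 68.0 TPM against 71.9 to 112 TPM (log2 0.97, limma adjusted p = 0.156), and it was called without saline library 4 (adjusted p = 0.0441). It was the only separated gene of 6 listed in osmolyte handling, whose median was -0.53.

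The genes of the cytosolic ribosome lay mostly higher, by small differences. Of 77 listed ribosomal protein genes 69 had a difference above 0, 18 were higher without overlap (23.4%, against 3.56% of all genes), none was called, and the median was 0.30. The summed level was 11240 to 13247 TPM with saline and 13928 to 15491 TPM with dDAVP, without overlap. Rpl26 stood at 240, 196, 115 and 109 TPM with saline and at 291, 244, 320 and 263 TPM with dDAVP (log2 0.83, limma adjusted p = 0.246), with saline libraries 3 and 4 the lowest. Rps19, Rpl35 and Rpl5 differed by 0.79, 0.68 and 0.67, and the list's median lay between 0.25 and 0.35 when any 1 library was left out. Ribosomal protein genes have many near-identical copies in the genome, so single values are uncertain. Of 33 listed translation factors 1 was separated, Eif3h (log2 0.52), with a median of 0.12.

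Lysosomal genes held 1 protease that rose and several separated genes on the low side. Of 27 listed, 20 had a difference below 0 and 7 above, 6 were lower without overlap (22.2%, against 5.02% of all genes), and the median was -0.27. Ctsh, cathepsin H, stood at 247, 341, 258 and 304 TPM with saline and at 622, 647, 743 and 516 TPM with dDAVP, a 2.19-fold rise (limma adjusted p = 0.0110), lost without dDAVP library 3 alone (adjusted p = 0.0596). Ctsb and Ctsf, other cathepsins, Psap, the precursor of the saposins, and the glycosidase Gaa differed by -0.68, -0.58, -0.58 and -0.71 without a call. Ctsb and Psap were highest in saline library 3, at 1067 and 920 TPM. Without that library the list's median was -0.17. The proximal tubule transcripts of that library moved with these values, and their part was not tested. Of 32 listed proteasome genes 1 was higher (Psma1) and 1 lower (Psmd13) without overlap, and of 24 listed genes of protein folding in the endoplasmic reticulum none was separated.

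**Figure D5:**
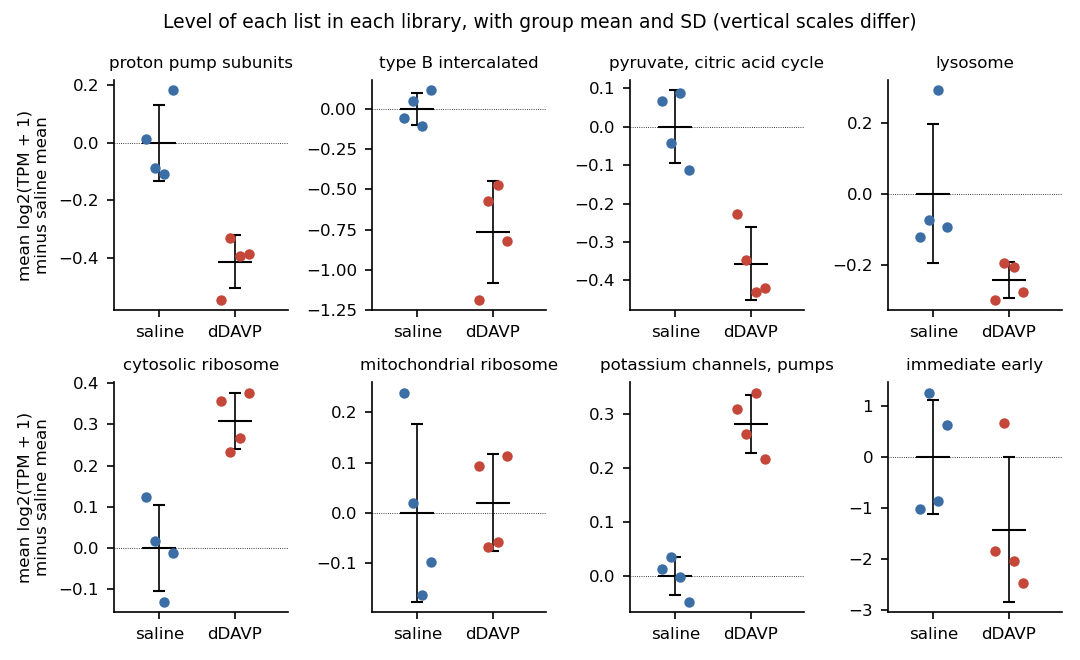
Mean of log2(TPM + 1) over the listed members of 8 gene lists in each library, minus the mean of the saline libraries (points), with group mean and SD (n = 4). The groups stand apart for the proton pump, type B, citric acid cycle, lysosome, cytosolic ribosome and potassium lists, and overlap for the mitochondrial ribosome and the immediate early genes.

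Transcripts of organic solute transporters were lower for 1 called gene and several others. Slc16a5, a member of the monocarboxylate transporter family, stood at 217, 177, 153 and 217 TPM with saline and at 75.3, 79.3, 85.6 and 50.0 TPM with dDAVP. It fell by 1.40 on the log2 scale (limma adjusted p = 0.0190, kept in 4 of 8 fits). Slc43a2, an amino acid transporter, ran from 69.7 to 125 TPM and from 26.5 to 42.1 TPM (log2 -1.27, limma adjusted p = 0.0758), and Slc29a1, a nucleoside transporter, from 103 to 128 TPM and from 59.6 to 91.3 TPM (log2 -0.73, limma adjusted p = 0.221). Of 17 listed solute carriers 4 were lower without overlap (23.5%, against 5.02% of all genes) and none higher (against 3.56%), and the median was -0.64, or -0.41 without saline library 3 and -0.42 without saline library 4.

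Among regulators, Id2 gave the largest called fall. Id2, which blocks DNA binding by helix-loop-helix proteins (chr12:25093799-25096092), stood at 580, 648, 400 and 649 TPM with saline and at 186, 200, 123 and 163 TPM with dDAVP. It fell by 1.75 on the log2 scale (SE 0.21, limma adjusted p = 0.0032), and the highest dDAVP library lay below the lowest saline library, 200 against 400 TPM. Id3, its relative, overlapped (log2 -0.76), and no other gene of 11 listed in this signalling group was separated. Tmem52b and Tmem37, membrane proteins, completed the called falls, from 367 to 804 TPM to 126 to 236 TPM and from 114 to 166 TPM to 42.1 to 68.7 TPM (log2 -1.61 and -1.31, limma adjusted p = 0.0238 each, kept in 3 of 8 fits each).

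Receptors for prostaglandin E2 and adenosine, local mediators known to temper the action of vasopressin in the duct, were higher in every dDAVP library. Ptger1, a receptor for prostaglandin E2, stood at 76.1, 98.6, 62.3 and 184 TPM with saline and at 213, 202, 250 and 208 TPM with dDAVP (log2 1.17, SE 0.29, limma adjusted p = 0.133). The dDAVP libraries lay close together while saline library 4 came near them, and without that library the gene was called (adjusted p = 0.00592). Adora1, the A1 adenosine receptor, stood at 28.7, 41.7, 23.2 and 49.1 TPM with saline and at 68.0, 74.9, 54.8 and 54.0 TPM with dDAVP (log2 0.84, limma adjusted p = 0.309). These were the separated genes of 13 listed in prostaglandin, endothelin and purine signalling (15.4%, against 3.56% of all genes), whose median was -0.09.

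Few transcription factors were separated, 4% of those listed higher and 8% lower, against 3.56% and 5.02% of all genes. Of 25 listed factors of the duct, Hoxd8 was higher (242 to 257 TPM against 320 to 478 TPM, log2 0.54), and Gata2 (197 to 344 TPM against 137 to 180 TPM, log2 -0.70) and Tbx2 (107 to 227 TPM against 62.5 to 104 TPM, log2 -0.77) were lower, none with a call. Of 15 listed genes of the hypoxia response, Ldha, Stc1 and Ddit4l rose as given above. Vhl, also on that list, marks hypoxia-inducible factors for destruction and was lower without overlap (28.3 to 55.1 TPM against 15.8 to 25.8 TPM, log2 -0.70). Adm, adrenomedullin, which the same response induces, overlapped at a difference of -2.78, and the list's median was 0.03. No listed gene was separated in the lists of Wnt and β-catenin signalling (14), Notch (5), the circadian clock (7), antioxidant defence (25), tight junctions (18) and primary cilia (16). Of 31 listed actin genes 3 were higher without overlap (9.68%, against 3.56% of all genes). They were Myl12b, Pfn1 and Arpc4, by 0.39, 0.28 and 0.25.

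Separated genes outside every list added further functions. Epb41l3, a linker of membrane and cytoskeleton, stood at 45.6, 27.7, 12.9 and 23.9 TPM with saline and at 95.5, 100, 101 and 57.4 TPM with dDAVP (3.36-fold, limma adjusted p = 0.0755). Muc20, a membrane mucin, stood at 113, 280, 141 and 365 TPM and at 626, 659, 504 and 500 TPM (2.82-fold, limma adjusted p = 0.0769), and Pi4k2b, a phosphatidylinositol kinase, was 2.79-fold higher. Smim3, Fermt1, an integrin activator, Fam174b, Rcn1, a calcium-binding protein of the endoplasmic reticulum, Pak6, a kinase, H2aw and Lratd1 were higher by 1.43, 1.34, 1.32, 1.31, 1.30, 1.29 and 1.27 on the log2 scale, and none was called.

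On the low side the unlisted genes included both mitochondrial and adhesion proteins. Hhatl stood at 112, 113, 55.2 and 177 TPM with saline and at 18.1, 47.2, 31.7 and 41.2 TPM with dDAVP (log2 -1.66, limma adjusted p = 0.104), and it was called without saline library 3 (adjusted p = 0.0382). Mtfp1, which acts in mitochondrial fission, and Coq8a, which acts in coenzyme Q synthesis, differed by -1.51 and -1.42, with ranges of 51.8 to 172 TPM against 24.6 to 40.8 TPM for Mtfp1. Pxn, paxillin, Itgb6, an integrin, and Fstl1, a secreted glycoprotein, differed by -1.47, -1.40 and -1.29. Stard8, Tmem163 and Cmtm7 differed by -1.31, -1.30 and -1.23, and none of these genes was called.

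Most genes that respond to handling and stress had differences below 0. Of 14 listed immediate early genes, the fast transcriptional responders to stimulation, 13 had a difference below 0 with a median of -1.51, and none was separated or called. Without dDAVP library 2, 9 of the 14 were separated, all lower, where 7.01% of all genes were lower without overlap. Jun stood at 248, 547, 167 and 513 TPM with saline and at 45.0, 233, 42.9 and 36.5 TPM with dDAVP (log2 -2.35, limma adjusted p = 0.108). dDAVP library 2 lay among the saline libraries, and without it Jun was called (log2 -2.96, adjusted p = 0.00913), as was Fos (log2 -3.70, adjusted p = 0.00496). Of 18 listed heat shock genes 2 were lower without overlap (11.1%, against 5.02% of all genes). They were Hspa1a, at 49.8 to 129 TPM with saline against 21.4 to 39.7 TPM with dDAVP, and the mitochondrial chaperone Hspd1 (log2 -0.64). Hspa1a has a near-identical neighbour, so its value is uncertain. The part of handling in the results above was not tested.

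Accessibility near the called genes was read from the ATAC-seq table. The authors' deposited table gives 1 value per group from 3 saline and 3 dDAVP libraries. A promoter peak here is the gene's strongest peak among those annotated there as promoter. Such a peak was found for 17 of the 28 genes that rose. None of the 17 was called higher and 6 were called lower at the authors' adjusted p of 0.05. Their median log2 difference was -0.387 in the authors' deposited table, beside -0.513 for 3724 listed genes with a promoter peak, of which 47% were called lower. For 6 of the 7 genes that fell, the median in the authors' deposited table was -0.626, and 5 peaks were called lower. The peak over the Ldha start (chr7:46845145-46847282) went from 9.588 to 8.796 on the authors' log2 scale, with an adjusted p of 5.31e-05 in the authors' deposited table, while that of Aqp2 (chr15:99578305-99579420) went from 9.061 to 8.724 with an adjusted p of 0.399 there.

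Peaks called higher lay in or nearest to 7 of 25 genes that rose (28%) and to 0 of 7 that fell, beside 261 of 4764 listed genes (5.5%), in the authors' deposited table. Peaks called lower in that table lay at 16 of the 25 (64%), at 7 of the 7 and at 71.2% of the listed genes. The genes that rose and had a peak called higher were Ache, Adh1, Btc, Car15, Cdk18, Dab1 and Mal2. The peak at Car15 (chr16:17837337-17838583), annotated there as intronic, covers the upstream window printed above. In the authors' deposited table it went from 8.689 to 9.076 with an adjusted p of 0.0141. Being annotated as intronic, it was not counted among the promoter peaks above. The promoter peak counted for Car15 was a weaker one, at 1.534 with saline and 2.236 with dDAVP in the authors' deposited table. At Ache 3 peaks called higher were annotated as intergenic, and at Cdk18 2. At Btc, Adh1 and Mal2 the only peak called higher was weak with saline. In the authors' deposited table these peaks stood at 0.0, 0.406 and 0.394 with saline and at 2.697, 3.066 and 3.014 with dDAVP (log2 scale). These shares are a description, with no test.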

How the data were processed

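RNA of microdissected cortical collecting duct was analysed in 4 saline and 4 dDAVP libraries, grouped by the labels' titles. Per the labels' protocols, cDNA was made with the SMARTer V4 kit and libraries with Nextera XT; no strand setting is stated, so overlapping antisense genes cannot be told apart. The submitters' processing notes name STAR, RSEM and the build mm10. TPM, a per-length unit, was used as the authors deposited it. Per the file headers, only genes above 10 TPM in every library are listed, which matched the values. A gene that is lower than this in any library cannot be seen. Sums over the listed genes ran from 895155 to 925759 TPM. The log2 fold change and the adjusted p-value that the authors deposited in that table were not used, nor were its log2 copies of the TPM columns. For ATAC-seq, the log2 signal per group, the log2 difference and the p-value adjusted for multiple testing were used as the authors deposited them.

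Genes were tested with limma 3.58.1 in R 4.3.3 (lmFit, eBayes with a trend, two-sided) on log2(TPM + 1), a pseudocount of 1, with Benjamini-Hochberg adjustment over 5035 genes. Separation of the groups was read from the same values, with no test. The scripts were tested on simulated data. The members and the 58 gene lists were chosen with earlier results of these data known, so lists are described by counts and medians beside those of all genes. Named genes were every called gene except predicted models. In each list they were up to 6 separated members and up to 2 further members of smallest p, and outside the lists the 12 largest separated rises and falls of 1.5-fold or more, with 14 genes always included. Not every gene that this rule allows is described, and some are not reported here. Positions and upstream sequences came from RefSeq on GRCm38.p6, the same build as mm10. Positions were matched by Ensembl identifier, or by symbol where that failed (4980 of 5035 genes, 98.9%), and upstream sequences by symbol. The 18 alternatives covered the pseudocount, a filter on low values, scaling, the model's weights and block, and leaving out libraries.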

Additional observations from a re-analysis of the deposited data

Results flagged for a closer look

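Single libraries stood far from the rest of their group for 6 of the 70 groups of libraries examined (both groups of the 35 called genes), where Dixon's 95% criterion for groups of 4 was exceeded. Chance alone exceeds it in about 1 of 20 groups. Saline library 3 was low for Eva1b, at 19.02 TPM against 63.97 to 69.19 TPM in the other saline libraries, and for Ckmt1, at 1169.76 TPM against 1436.37 to 1485.61 TPM. Saline library 4 was high for Lcn2, at 193.15 TPM against 64.88 to 81.12 TPM. Saline library 1 was high for Car15, at 1862.84 TPM against 1430.37 to 1470.54 TPM. dDAVP library 3 was low for Cdk18, at 125.96 TPM against 177.29 to 183.29 TPM, and dDAVP library 1 was low for Atp4a, at 573.62 TPM against 1112.7 to 1156.56 TPM. In all 6 cases the library lay on the same side of every library of the opposite group as its own group did. This follows from the choice of genes, since all 35 called genes had groups that did not overlap.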

How the results depend on the processing

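Depth is unknown, 4 libraries per group limit the tests, and saline libraries 3 and 4 correlated least with the rest. When library weights estimated by limma were used (from 0.182 for saline 4 to 3.89 for dDAVP 2), 317 genes were called, 164 higher and 153 lower, so that 51.7% rather than 80% of calls were higher. Leaving out 1 library gave between 7 and 47 calls, 6 to 40 higher and 1 to 14 lower, and 555 to 709 separated genes against 432; of the 35 called genes, 7 kept their call in all 8 of these fits. The share of calls that were higher was 63.2% without saline 3, 56.5% without dDAVP 2 and 94.4% without saline 1. Leaving out both saline 3 and saline 4 gave 11 lower calls and 1203 separated genes. With fewer libraries, separation is easier by construction, and a given difference is harder to call. The labels do not say that the replicate numbers pair the libraries, so they were not taken as pairs. Same-numbered libraries deviated from their group means with correlations of 0.19, 0.23, 0.09 and -0.15, which do not settle whether they are pairs. With the replicate number as a block 8 genes were called, 7 higher and 1 lower. Both libraries of numbers 1 and 2, and dDAVP 3, correlated best with their own number, and the other 3 did not. Median of ratios, quantile normalization and leaving Aqp2 out of the total moved the median over all genes from -0.06 to -0.00043, 0.0031 and -0.00034. Car12 and Ckmt1 lost their calls when Aqp2 was left out of the total (adjusted p = 0.0576 and 0.0533), Car12 also under median of ratios (0.0596) and Ckmt1 under quantile normalization (0.0606), as did Aqp2 under quantile normalization (log2 0.42, 0.696); the cause was not tested. The 153 genes named kept their direction in every alternative run, except 3 that were never called. Scnn1g went from 0.02 to -0.13 with library weights, -0.35 without saline 3 and saline 4, and between -0.20 and 0.19 with 1 library left out (-0.01 without saline 3, -0.13 without dDAVP 2). Slc4a1 was at 0.0031 under median of ratios, 0.0053 under quantile normalization and 0.0032 with Aqp2 left out of the total, and between -0.15 and 0.049 with 1 library left out (0.0031 without dDAVP 4). Umod lay between -1.92 and 0.71 (0.36 without saline 1, 0.07 without dDAVP 4). A pseudocount of 0.1 ended the call of Wfdc2.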

Other observations

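The lists of RNA splicing, the cell cycle and secretory traffic each gave 1 separated gene. Rbm3, a cold-inducible RNA-binding protein, stood at 47.4, 50.9, 21.5 and 27.4 TPM with saline and at 56.4, 55.2, 71.3 and 65.4 TPM with dDAVP (log2 0.82, limma adjusted p = 0.37), and the median of 45 listed splicing genes was 0.08. Ccng1, cyclin G1, stood at 92.6, 98.7, 114 and 209 TPM with saline and at 87.2, 92.2, 63.0 and 57.2 TPM with dDAVP (log2 -0.72, limma adjusted p = 0.398), and the median of 19 listed cell cycle genes was -0.23. Sec31a, a coat protein of vesicles leaving the endoplasmic reticulum, ran from 139 to 161 TPM with saline and from 70.6 to 133 TPM with dDAVP (log2 -0.57), and the median of 43 listed traffic genes was 0.03. None of these genes was called. For Rbm3 the lowest values were saline libraries 3 and 4, and for Ccng1 the highest was saline library 4. Plvap, a protein of fenestrated endothelium, ran from 79.5 to 142 TPM with saline and from 122 to 359 TPM with dDAVP; it was 1 of 2 listed endothelial markers of 10, and its groups overlapped. Of 19 listed principal cell genes 5 were higher and 3 lower without overlap (26.3% and 15.8%, against 3.56% and 5.02% of all genes), and of 10 listed carbonic anhydrase and bicarbonate transport genes 1 was higher and 5 lower (10% and 50%).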
